A study of Mus musculus with 4 samples.

Results

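Genes that switch the primary cilium between assembly and disassembly were followed in whole mouse embryos with and without an intact *Dyrk2* gene. The 10 genes were taken by name from the array annotation (*Aurka*, *Plk1*, *Nek2*, *Kif2a*, *Kif24*, *Hdac6*, *Nedd9*, *Ccp110*, *Cep97* and *Ttbk2*), and they are 10 of the 37325 genes named on the array, with 15 of its 56604 probes. The primary cilium is a single antenna-like projection that grows from the mother centriole when a cell leaves the division cycle and is taken back before the cell divides. Aurora A kinase, which is turned on by the scaffold Nedd9, drives this withdrawal through the tubulin deacetylase Hdac6, with help from Plk1, Nek2 and the kinesins Kif2a and Kif24, which take microtubules apart. Ccp110 and Cep97 form a cap on the centriole that blocks growth of a cilium, and the kinase Ttbk2 starts assembly as that cap is removed.

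The groups were C57BL/6 embryos, either wild type (WT) or carrying a knockout of *Dyrk2* (*Dyrk2*-/-), each taken at embryonic day (E) 8.5 or 2 days later, at E10.5. *Dyrk2* encodes a protein kinase, and the knockout mice were made by CRISPR/Cas9 nickase editing in several lines with different small deletions. Which line the embryos came from, and how many embryos gave each RNA, is not stated. Each of the 4 groups was measured on 1 one-colour array, so differences between 2 arrays carry no p-value, and their number limits the precision. Between 30226 and 31943 probes per array were well above background. The *Dyrk2* probe with the highest signal read 0.06 (WT) and 0.76 (*Dyrk2*-/-) at E8.5, then −0.31 and 0.34 at E10.5. It was thus higher on the arrays labelled *Dyrk2*-/-, 1.62-fold and 1.57-fold (log2 ratio 0.15 at E8.5 with spike-in scaling). A second probe read −0.23 and −0.20, then −0.28 and −0.00, and was not lower on these arrays under this scaling. At E8.5 the second probe was lower by a log2 ratio of −0.52 with spike-in scaling and −0.23 with no scaling. The paper reports that Dyrk2 protein was lost in tissues of knockout embryos at a later stage. The 8 neural and 6 heart marker genes listed were well above background on every array. The arrays also differed in sex-linked genes, since Y-linked genes were well above background on 3 arrays and *Xist* only on E10.5 *Dyrk2*-/-. All 5 sex-linked genes listed passed 1.5-fold between genotypes at E10.5, where this difference and the genotype cannot be told apart. The same array enters the stage comparison in *Dyrk2*-/- and both limma differences.

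Values are log2 intensities relative to the 75th percentile of the same array, and a gene is given by its probe with the highest signal unless another probe is named. Levels are compared between arrays for 1 probe, not between probes. The median spread of repeated spots on an array was 0.09 and 0.12 at E8.5 (log2, WT and then *Dyrk2*-/-) and 0.07 and 0.08 at E10.5, which gives a spread of 0.15 for a log2 ratio of the genotypes at E8.5 and of 0.11 at E10.5. This spread covers the measurement on an array only, not differences between embryos. All 10 genes had a probe well above background on all 4 arrays, and of their 15 probes 14 were, the exception being a *Kif24* probe that was so on 0 arrays.

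The first question was whether these genes differed between the genotypes. At E8.5, 1 of the 10 genes passed a 1.5-fold difference, against 11.7% of the 20848 genes compared, and it was *Kif2a*, lower in *Dyrk2*-/- (1 of 10 lower against 6.52% of genes, 0 of 10 higher against 5.14%). At E10.5 it was 0 of 10, against 7.72% of 21351 genes (3.5% higher and 4.22% lower). Differences beyond the spread of repeated spots were found for 4 of 10 genes at E8.5 (58.9% of all genes) and for 4 of 10 at E10.5 (55.5%). The median log2 ratio of the 10 genes was −0.09 at E8.5, against −0.05 at E10.5, beside −0.02 and −0.00 over all genes. With limma over both stages, which has 1 residual degree of freedom, 0 of 10 genes passed an adjusted p of 0.05 for genotype, against 0.0285% of 21039 genes (0.019% higher and 0.00951% lower). At an unadjusted p under 0.05 the count was also 0 of 10, against 5.69% of genes, and the adjusted p was 1 for each of the 10. Of 12 erythroid marker genes, with a median limma difference of 2.69, 12 had an unadjusted p under 0.05 and 0 passed the adjusted threshold. A count of 0 in this fit therefore does not show that the genotypes were alike.

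**Figure D1:**
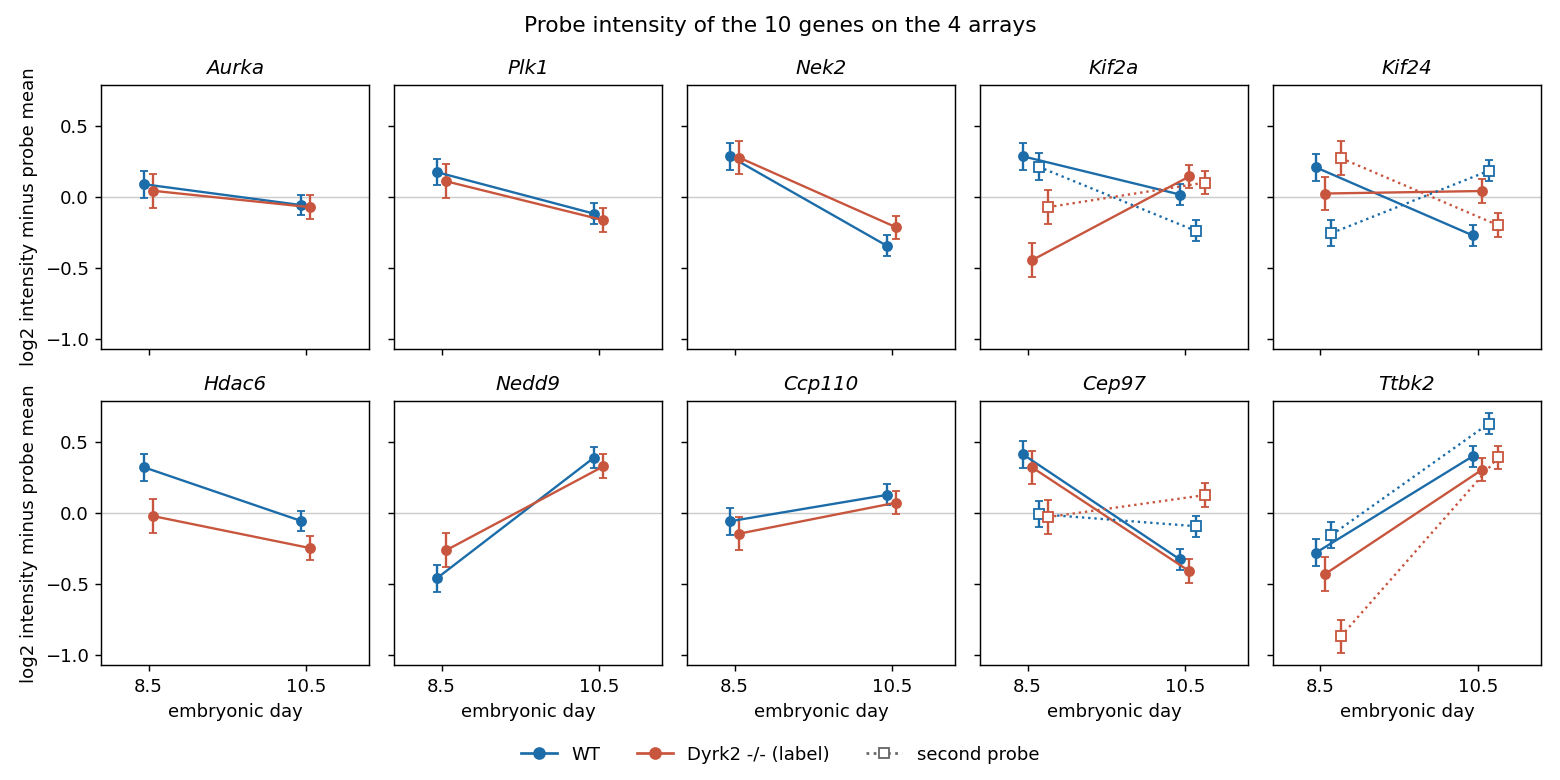
Log2 intensity of each of the 10 genes minus the mean of the same probe over the 4 arrays (vertical axis) against embryonic day (horizontal axis), with WT in blue and *Dyrk2*-/- in red. Filled circles are the probe with the highest signal, open squares are second probes, and bars are the median SD of repeated spots on that array. The genotypes lie close together for most genes, *Kif2a* is low on the E8.5 *Dyrk2*-/- array, and *Nedd9* and *Ttbk2* are higher at E10.5 in both genotypes.

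*Aurka*, the kinase at the centre of cilium withdrawal and of mitotic spindle assembly, read 5.44 (WT) and 5.39 (*Dyrk2*-/-) at E8.5, then 5.29 and 5.28 at E10.5. All 4 arrays lay within 0.16, and no 2 neighbours in this order differed by more than the spread of repeated spots. *Plk1*, a mitotic kinase that also acts at the ciliary base, read 5.61 and 5.54 at E8.5, then 5.32 and 5.27 at E10.5. Both E8.5 arrays were above both E10.5 arrays, and within each stage the genotypes differed by less than the spread. Both depended on the scaling. The *Plk1* stage ratio in *Dyrk2*-/- was 0.03 with no scaling and 0.37 with spike-in scaling, and its genotype ratio at E8.5 was −0.32 and −0.61. *Nek2*, a centrosomal kinase that separates the centrosomes and activates Kif24, read 1.47 and 1.46 at E8.5, then 0.84 and 0.97 at E10.5. Its E8.5 arrays were equal within the spread and stood above the E10.5 arrays, where *Dyrk2*-/- was higher by 0.13 (−0.0023 with no scaling).

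Both kinesins that remove tubulin from microtubule ends gave less even values. *Kif2a* (chr13:107751949-107752008, mm9) read 1.41 in WT and 0.68 in *Dyrk2*-/- at E8.5, then 1.14 and 1.27 at E10.5. The E8.5 *Dyrk2*-/- array was the lowest and the E8.5 WT array the highest, with the E10.5 arrays between them, and every step in this order exceeded the spread. The log2 ratio at E8.5 was −0.73 (1.66-fold), and 4.56% of all genes had a lower one. A second *Kif2a* probe, whose 60 bases span 565 bases of the genome (chr13:107772727-107773291) and so cross an intron, read −2.88 and −3.17 at E8.5, then −3.33 and −3.00 at E10.5. It was also lower in *Dyrk2*-/- at E8.5 and higher at E10.5, but with −0.28 it did not reach 1.5-fold, and the mean of both probes (−0.51) did not either. In limma the *Kif2a* difference over both stages was −0.30 with a standard error of 0.19 and an adjusted p of 1.

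*Kif24*, a kinesin that binds Ccp110 and acts at centriolar microtubules, read −0.51 and −0.69 at E8.5, then −0.99 and −0.67 at E10.5. The E10.5 WT array was the lowest and the E8.5 WT array the highest, with the *Dyrk2*-/- arrays between them and equal within the spread. A second *Kif24* probe, placed on another transcript, read −2.40 and −1.87 at E8.5, then −1.96 and −2.34 at E10.5. Its genotype differences were 0.53 and −0.38, the opposite of the −0.18 and 0.31 of the first probe, so the direction for *Kif24* depended on the probe.

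The deacetylase and the scaffold differed from each other in their order across arrays. *Hdac6*, which removes acetyl groups from the tubulin of the ciliary shaft, read 3.56 and 3.22 at E8.5, then 3.19 and 2.99 at E10.5. It was lower in *Dyrk2*-/- at both stages by more than the spread, with log2 ratios of −0.34 and −0.19, and the limma difference was −0.27 ± 0.12 (SE) with an adjusted p of 1. With spike-in scaling the E10.5 ratio was −0.03, within the spread. *Hdac6* lies on chromosome X. Y-linked *Uty*, *Kdm5d*, *Eif2s3y* and *Ddx3y* passed the background limit on 3 arrays and *Xist* only on the remaining one, E10.5 *Dyrk2*-/-, where it read −0.37. The part of this difference in the *Hdac6* value was not tested. *Nedd9*, the scaffold that binds and activates Aurora A (chr13:41405822-41405881), read −0.66 and −0.47 at E8.5, then 0.19 and 0.12 at E10.5. Both E10.5 arrays were above both E8.5 arrays, and the genotypes differed by more than the spread only at E8.5, by 0.20. This depended on the scaling, since the E8.5 ratio was −0.35 with spike-in scaling and −0.06 with no scaling. With no scaling the E10.5 ratio was −0.19, past the spread.

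In the cap and the assembly kinase, the genotypes differed less than the spread of repeated spots at both stages for each of the 3 genes by the first probe. A second *Ttbk2* probe differed by more than the spread at both stages, with log2 ratios of −0.71 (1.64-fold) at E8.5 and −0.24 at E10.5. A second *Cep97* probe did so at E10.5 only, with 0.22. *Ccp110*, the cap protein whose loss from the mother centriole permits a cilium, read 2.72 and 2.64 at E8.5, then 2.91 and 2.86 at E10.5. Both E10.5 arrays were slightly above the E8.5 arrays. *Cep97*, the partner that holds Ccp110 on the centriole (chr16:55905106-55905165), read −0.12 and −0.21 at E8.5, then −0.86 and −0.94 at E10.5. *Ttbk2* (chr2:120558775-120558834) showed the reverse order, with −0.04 and −0.18 at E8.5, then 0.64 and 0.55 at E10.5. By these probes the stages did not overlap for *Cep97* or for *Ttbk2*, whereas they overlapped for a second *Cep97* probe. The share of all genes with such an order of the arrays was not counted.

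**Figure D2:**
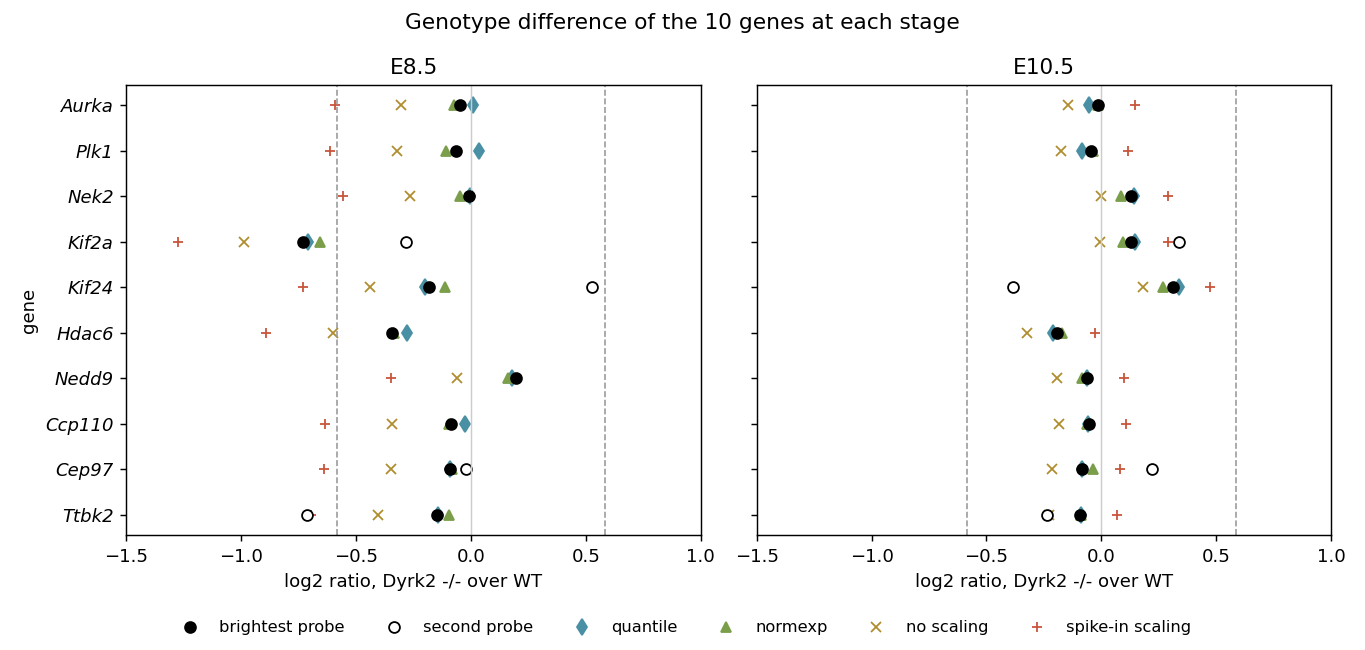
Log2 ratio of *Dyrk2*-/- to WT (horizontal axis) for each of the 10 genes at E8.5 and E10.5, with dashed lines at 1.5-fold. Black circles are the probe with the highest signal, open circles second probes, and coloured marks the same first probe under other ways of scaling the arrays. With 75th percentile scaling only *Kif2a* passes the line by its first probe, and scaling to spike-in probes moves every gene at E8.5 to lower ratios.

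These ratios rest on the scaling between the arrays. With the spike-in control probes as the base, all probes moved by a median of −0.55 (E8.5) and 0.16 (E10.5), and 8 of the 10 genes then passed 1.5-fold at E8.5, against 49% of all genes under the same scaling. The median log2 ratio of the 10 was then −0.64, beside −0.55 over all probes.

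The second question was how the switch genes differed between the stages. In WT, 4 of 10 genes passed 1.5-fold between E8.5 and E10.5, against 36.3% of 21788 genes, namely *Nedd9* and *Ttbk2* higher at E10.5 (2 of 10 against 18.8%) and *Nek2* and *Cep97* lower (2 of 10 against 17.5%). In *Dyrk2*-/- it was 4 of 10 against 31.5% of 21405 genes, with *Nedd9*, *Ttbk2* and *Kif2a* higher (3 of 10 against 17.5%) and *Cep97* lower (1 of 10 against 13.9%). The median log2 ratio was −0.28 in WT and −0.05 in *Dyrk2*-/-, beside −0.08 and −0.05 over all genes. All 10 genes differed by more than the spread of repeated spots in WT (84.2% of all genes) and 8 of 10 in *Dyrk2*-/- (77.5%). With limma over both genotypes, 4 of 10 genes differed between stages, against 37.6% of 21039 genes, so the share was near that of the whole array. Of these 2 were higher at E10.5, against 17.2% of genes, and 2 were lower, against 20.4%, and at an unadjusted p under 0.05 the count was 6 of 10 against 47.8%. The WT and *Dyrk2*-/- stage comparisons use separate arrays, whereas the genotype comparisons share arrays with them.

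*Ttbk2* rose by 0.71 ± 0.13 (log2, SE) with an adjusted p of 0.00366 in limma, with log2 ratios of 0.68 in WT and 0.73 in *Dyrk2*-/-. *Nedd9* rose by 0.72 ± 0.15 with an adjusted p of 0.00501, higher at E10.5 in both genotypes (0.85 and 0.59). *Cep97* fell by 0.73 ± 0.14 with an adjusted p of 0.0042, and the 2 genotypes gave −0.74 and −0.73. *Nek2* fell by 0.56 ± 0.13 with an adjusted p of 0.00938, from −0.63 in WT and −0.49 in *Dyrk2*-/-. An assembly kinase and a disassembly scaffold were thus higher at E10.5 and a cap protein and a disassembly kinase lower. A relation to their roles was not tested. Their limma differences kept their direction under every scaling, but under spike-in scaling 0 of the 10 genes passed the threshold for stage, and in *Dyrk2*-/- alone the log2 ratio was then 0.15 for *Nek2*, −0.09 for *Cep97*, 1.37 for *Ttbk2* and 1.23 for *Nedd9*. *Nek2* also missed the threshold with no scaling (adjusted p 0.139) and without the intensity trend (0.068). Over all alternatives the adjusted p ran from 5.98e-07 to 0.488 for *Ttbk2*, from 5.75e-07 to 0.439 for *Nedd9*, from 5.16e-05 to 1 for *Cep97* and from 8.01e-05 to 1 for *Nek2*.

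For the remaining 6 genes the adjusted p for stage ran from 0.0778 (*Plk1*) to 0.552 (*Kif2a*). *Hdac6* was lower at E10.5 in both genotypes, by log2 ratios of −0.38 and −0.23, with an adjusted p of 0.0788, but the ratio in *Dyrk2*-/- was 0.41 with spike-in scaling and 0.08 with no scaling. *Ccp110* was higher in both, by 0.19 and 0.22, with an adjusted p of 0.217 that was 0.0411 with quantile normalization, 0.0398 in the deposited values and 0.0279 with no scaling, and *Aurka* was lower by −0.15 and −0.12 (adjusted p 0.396). The *Aurka* direction turned under quantile normalization, spike-in scaling, no scaling and the deposited values.

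Second probes gave the stage differences different weight. The second *Ttbk2* probe read −3.18 and −3.89 at E8.5, then −2.39 and −2.63 at E10.5, and it was higher at E10.5 in both genotypes, by 1.02 ± 0.25 in limma (adjusted p 0.0117). It was also lower in *Dyrk2*-/- at E8.5 by a log2 ratio of −0.71, where the first probe gave −0.15. For *Cep97* the second probe read −0.82 and −0.84 at E8.5, then −0.90 and −0.68 at E10.5, with a stage difference of 0.03 ± 0.15 (adjusted p 0.883). The fall of *Cep97* was therefore seen with 1 of its 2 probes, and the difference between the probes was not tested.

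The *Cep97* probes both target NM_028815. The one that fell starts at base 2739 and has a stop codon in each of its 3 reading frames, whereas the even one starts at base 435 and leaves 1 frame open. The second probes of *Cep97* (chr16:55925087-55925146), *Ttbk2* (base 1545 of NM_001024856, chr2:120581662-120581721) and *Kif2a* (base 1108 of NM_008442, whose first probe starts at base 2864) are shown because they gave other values than the first probes, and all 3 are on the minus strand.
*Cep97* second probe: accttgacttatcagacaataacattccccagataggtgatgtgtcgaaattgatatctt
*Ttbk2* second probe: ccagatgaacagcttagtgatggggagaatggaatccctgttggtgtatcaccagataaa
*Kif2a* second probe: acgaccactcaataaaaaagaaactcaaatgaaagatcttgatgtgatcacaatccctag
Each is 60 bases long, with 22 (*Cep97*), 27 (*Ttbk2*) and 21 (*Kif2a*) bases that are G or C.

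*Aurka* and *Plk1* had the smallest distance among the 10 genes, a Euclidean distance of 0.15 between their log2 values over the 4 arrays, each centred on its own mean. This distance is not scaled to the range of a gene, so genes that vary little lie close. The ranges were 0.16 (*Aurka*) and 0.34 (*Plk1*), and a shared regulation of the 2 genes was not tested. Genes of late division are known for promoters with CCAAT boxes and a cell cycle homology region, so both motifs were searched on both strands in RefSeq promoters (GRCm38.p6, 250 bases before to 50 after the transcription start), of which 12 belong to the 10 genes. The letters TTTGAA were present in 17.9% of all 32851 promoters, CCAAT in 37.4%, and both in 6.95%. Among the switch genes, *Aurka*, *Plk1* and *Hdac6* had both motifs, the TTTGAA of *Hdac6* beginning 71 bases before the start. CCAAT was in 9 of the 12 promoters, and 8 of 10 genes had it in a promoter. For comparison, 13 of 19 listed G2/M genes with a promoter in the table had both, and 1 of 16 listed G1/S genes. CCAAT alone was counted in 16 of these 19 G2/M genes and in 10 of these 16 G1/S genes. The 60 bases before the start are printed for the mitotic kinases, and bases 21 to 50 after it where they hold TTTGAA, with the motifs in capitals.
*Aurka*, before the start (chr2:172370571-172370630, minus strand): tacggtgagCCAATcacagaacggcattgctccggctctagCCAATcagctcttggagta
*Aurka*, after the start (chr2:172370521-172370550): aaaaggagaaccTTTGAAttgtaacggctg
*Plk1*, before the start (chr7:122159375-122159434, plus strand): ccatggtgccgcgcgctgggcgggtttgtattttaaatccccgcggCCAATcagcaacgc
*Plk1*, after the start (chr7:122159455-122159484): cagcgccgcgTTTGAAttcggggaggagcg
*Nek2*, before the start (chr1:191821413-191821472, plus strand): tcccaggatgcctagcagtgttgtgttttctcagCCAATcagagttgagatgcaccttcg
In *Aurka* the TTTGAA begins 33 bases and in *Plk1* 31 bases after the start, with a CCAAT that begins 19 and 14 bases before it. The *Nek2* promoter has a CCAAT that begins 26 bases before the start and another outside the printed bases, 8 bases after it, and no TTTGAA.

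Genes that act with the switch were read from lists of partners. Of 18 disassembly partners, 0 passed 1.5-fold between genotypes at either stage, and the same held for 12 cap partners and 17 assembly partners, against 11.7% of all genes at E8.5 and 7.72% at E10.5. Between stages, limma called 1 disassembly partner higher and 2 lower, against the 17.2% and 20.4% of genes above. The counts were 3 and 1 with quantile normalization (19.3% and 17.3% of genes) or the deposited values (19.4% and 17.5%). They were 4 and 0 with no scaling (28.5% and 9.71%) and 0 and 0 with spike-in scaling (7.2% and 2%). The tubulin deacetylase gene *Sirt2* rose by 0.60, whereas *Ajuba*, an activator of Aurora A, fell by 0.62 and *Cdc20*, an activator of the anaphase-promoting complex, fell by 0.33 (adjusted p 0.0113, 0.00526 and 0.0466), but *Cdc20* passed in only 1 of the 6 scalings and sources of values. Of the cap partners 0 passed in either direction (1 of 12 at an unadjusted p under 0.05, against 47.8% of genes). With no scaling 2 were higher, against 28.5% of genes. With quantile normalization, normexp or the deposited values 1 was lower, against 17.3%, 20.1% and 17.5%. Of the assembly partners 3 were higher (*Mark4*, *Ehd3* and *Myo5a*) and 3 lower (*Rab3ip*, *Cep83* and *Rab11a*, of which *Cep83* and *Rab11a* passed in 2 of 6 scalings and sources). These counts became 5 and 1 with no scaling, against 28.5% and 9.71% of genes, and 0 and 0 with spike-in scaling, against 7.2% and 2%. *Rab3ip*, which encodes the Rabin8 factor that loads Rab8 on the growing cilium, fell by 0.76 (adjusted p 0.00299), and its arrays read 3.67 and 3.25 at E8.5, then 2.69 and 2.72 at E10.5.

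Relatives of the switch genes gave some wider stage differences than the switch genes. Of 32 relatives 27 were measured, and limma called 7 higher and 3 lower at E10.5, against 17.2% and 20.4% of all genes. The counts were 12 and 1 with no scaling, against 28.5% and 9.71%, and 3 and 0 with spike-in scaling, against 7.2% and 2%. *Plk3*, a relative of *Plk1* known from stress responses, read −1.29 and −1.07 at E8.5, then 2.34 and 1.82 at E10.5, a rise of 3.26 (adjusted p 3e-06). *Ttbk1*, the neural relative of *Ttbk2*, read −2.59 and −2.42 at E8.5, then −0.59 and −1.28 at E10.5, a rise of 1.57 (adjusted p 0.000739). *Hdac9*, a relative of *Hdac6*, rose by 1.64 (adjusted p 0.000122). These 3 relatives passed the threshold under all 6 scalings and sources of values. Between genotypes at E10.5, 2 of 27 relatives were past 1.5-fold, against 7.72% of all genes, and both were lower in *Dyrk2*-/-. They were *Ttbk1*, with a log2 ratio of −0.69, and *Plk5*, with −0.93. The *Plk5* signal in *Dyrk2*-/- at that stage missed the background limit. *Aurkc*, the germ cell relative of *Aurka*, fell by 1.22 between stages (adjusted p 0.00741). At E8.5 1 of 27 relatives was past 1.5-fold between genotypes, against 11.7% of all genes. It was *Aurkc*, lower in *Dyrk2*-/- with a log2 ratio of −0.83.

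Because the cilium is withdrawn for division, cell cycle genes were set beside the switch genes. Of 25 G2/M genes 0 passed 1.5-fold between genotypes at E8.5 or E10.5, and of 20 G1/S genes 0 did, against the same 11.7% and 7.72% of all genes. Between stages limma called 2 G2/M genes higher and 5 lower, against 17.2% and 20.4% of all genes. It called 6 higher and 1 lower with quantile normalization (19.3% and 17.3% of all genes) or the deposited values (19.4% and 17.5%). The counts were 6 and 0 with no scaling (28.5% and 9.71%) and 0 and 0 with spike-in scaling (7.2% and 2%). The G2/M median was −0.15, beside −0.18 for the switch genes and −0.07 for all genes. With no scaling these medians were 0.09, 0.06 and 0.18, with spike-in scaling 0.13, 0.10 and 0.22, and with quantile normalization 0.02, −0.00 and −0.01. Of the 20 G1/S genes 11 were called lower and 0 higher, against 20.4% and 17.2% of all genes, with a median of −0.48. *Cdt1* and *Mcm4*, which license replication origins, fell by 0.81 and 0.77 (adjusted p 0.000929 and 0.000868). The G1/S median stayed negative under every scaling tried (−0.20 with spike-in scaling, where 0 genes passed). With quantile normalization 8 genes were called lower, against 17.3% of all genes, and with no scaling 2, against 9.71%. Of 10 CDK inhibitor and pocket protein genes, *Cdkn2a*, *Cdkn2b* and *Rbl2* were well above background at 1 stage only and so entered the test through that stage, and they are not counted. Of the other 7, 5 were called higher and 0 lower, against the 17.2% and 20.4%, with *Cdkn1c* up by 0.80, *Cdkn2c* by 1.90 and *Rb1* by 0.94 (adjusted p 0.000665, 0.000115 and 0.00106), and only *Cdkn2c* passed under all 6 scalings and sources of values.

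**Figure D3:**
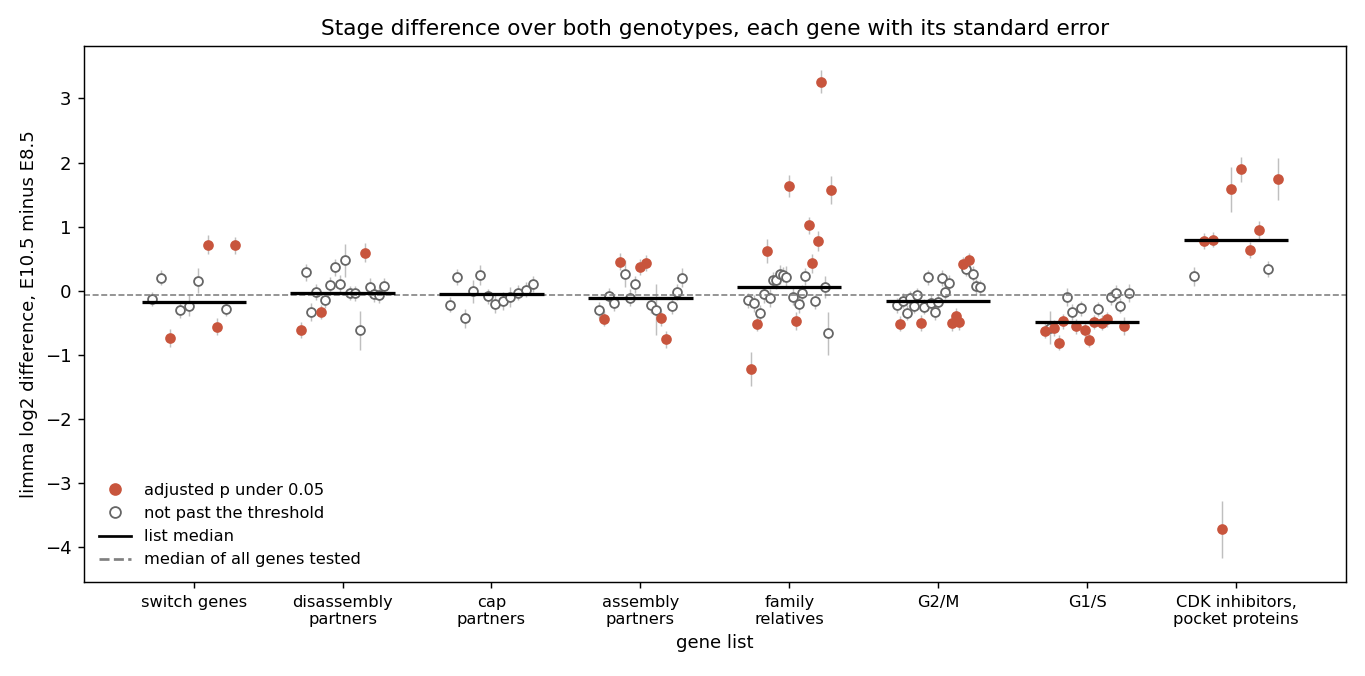
Limma difference between E10.5 and E8.5 over both genotypes (log2, vertical axis) for each measured gene of 8 lists (horizontal axis), with its standard error. Filled points passed an adjusted p of 0.05, black lines are list medians, and the dashed line is the median of all genes tested. The switch genes spread to both sides with a median of −0.18, G1/S genes lie low with a median of −0.48 and CDK inhibitors and pocket proteins high with a median of 0.79, 3 of these 10 being well above background at 1 stage only.

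*Nedd9* had the widest range of the 10 genes over the 4 arrays, 0.85. Of the other switch genes *Ttbk2* had the centred profile closest to that of *Nedd9*, at a Euclidean distance of 0.246 over 4 arrays, and *Cep97* the farthest, at 1.47.

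Blood and yolk sac markers on the same arrays give the cell content to read these values against. Of 12 erythroid markers, 9 were well above background on both E8.5 arrays and all 9 were past 1.5-fold higher in *Dyrk2*-/-, against 5.14% of genes, and at E10.5 it was 8 of 12 (median 1.16), against 3.5%. Their summed share of the signal was 0.00782% (WT) and 0.179% (*Dyrk2*-/-) at E8.5, then 0.714% and 0.821% at E10.5. Of 8 yolk sac endoderm markers 6 were past 1.5-fold lower in *Dyrk2*-/- at E8.5 (median −0.63), against 6.52% of genes, and 0 at E10.5, with summed shares of 0.0233% and 0.0153% at E8.5, then 0.0107% and 0.0087% at E10.5. Between stages *Apoa4* and *Amn* are not counted, since they were not well above background on every E10.5 array and so entered through E8.5. All of the remaining 6 except *Afp* were past 1.5-fold lower at E10.5, against 17.5% (WT) and 13.9% (*Dyrk2*-/-) of genes. *Apoa1* and *Rbp4* gave log2 ratios of −4.47 and −2.72 in WT, and of −4.13 and −2.41 in *Dyrk2*-/-. *Afp* was higher, by 0.57 (WT) and 0.87 (*Dyrk2*-/-, past 1.5-fold). Of decidua and trophoblast markers, *Prl8a2* was higher in *Dyrk2*-/- at E8.5 by 1.45, *Dcn* was lower with a log2 ratio of −0.65, *Cryab* did not pass 1.5-fold, *Prl3d1* was well above background on the E8.5 *Dyrk2*-/- array alone, and *Prl3c1* and *Tpbpa* on 0 arrays. In whole embryos fewer cells of a type and less RNA per cell cannot be told apart, and the part of these markers in the *Kif2a* value at E8.5 and in the stage differences was not tested.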

How the data were processed

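RNA of 4 whole-embryo groups was measured on 1 one-colour Agilent mouse array each. The authors deposited scanner output with a linear, background-subtracted processed intensity per spot, not scaled between arrays (Feature Extraction 10.7.1.1 in the file headers, 9.5.1.1 in the submitters' processing notes), and deposited processed values, also linear intensity, that share 1 distribution across arrays. Outlier spots were dropped, log2 values of a probe's spots averaged, and the array's 75th percentile subtracted. Pairs of arrays were compared at 1.5-fold, for probes that exceeded background in 1 of them or both. Genotype and stage were fitted together with limma 3.58.1 in R 4.3.3 (lmFit, eBayes with intensity trend, Benjamini-Hochberg over 32289 probes that exceeded background on 2 or more arrays). Python 3.11.15, numpy 2.4.6, pandas 2.3.3, matplotlib 3.10.9 and data.table (version 1.17.8) were used, and the steps were tested on simulated data. Coordinates of probes are mm9. Probes were named by RefSeq accession where listed (1535 renamed), which changed no probe of the 10 genes.

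Named genes are the 10 switch genes, *Dyrk2*, genes of the partner, relative, cell cycle and inhibitor lists with the 4 largest ratios in a comparison or past limma's threshold, and marker and sex chromosome lists. Members and lists were chosen with earlier results of these data known. Alternatives were quantile normalization, spike-in scaling (7 of 10 spike-in probes), no scaling, normexp with an offset of 50, the deposited table, the mean over probes, a filter on all 4 arrays, no filter, 2-fold, a Z-score over 2 or under −2 beside 1.5-fold, and limma without the trend.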

Additional observations from a re-analysis of the deposited data

Results flagged for a closer look

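The genotype difference of 2 kinesin genes pointed in opposite directions at the stages, by more than the spread of repeated spots at each. For *Kif2a* the log2 ratio of *Dyrk2*-/- to WT was −0.73 at E8.5, against 0.13 at E10.5, where it was −0.0042 with no scaling, so the opposite direction was lost there. For *Kif24* it was −0.18 at E8.5, against 0.31 at E10.5, and its second probe and the mean over probes (0.17 and −0.03) went the other way at both stages. With 1 array per group the difference between the stages was not tested.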

How the results depend on the processing

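Among 480 values of single genes recomputed under the alternatives, 365 kept their direction and their side of the threshold or moved by less than the spread of repeated spots, 92 moved further, 13 limma differences turned direction, and 6 lost and 4 gained an adjusted p under 0.05. Of the 320 of these that are log2 ratios of 2 arrays, 33 changed sign, 11 of them with spike-in scaling and 7 with no scaling. The limma count for genotype was 0 of 10 under every alternative run, and the E10.5 genotype count at 1.5-fold was 0 as well. Spike-in scaling shifted all probes by a median of −0.55 (genotype at E8.5), 0.16 (genotype at E10.5), −0.07 (stage in WT) and 0.64 (stage in *Dyrk2*-/-), and no scaling by −0.26, −0.13, 0.18 and 0.31.

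At E8.5 the count of genes past 1.5-fold was 1, and it became 8 with spike-in scaling (49% of all genes) and 2 with no scaling (17.8%). It became 0 with the mean over probes, at 2-fold or with the Z-score. The median genotype ratio became −0.64 (spike-in) and −0.35 (no scaling) at E8.5, whereas it became 0.11 and −0.18 at E10.5. For stage in WT the count of 4 became 3 with quantile normalization or the deposited table (34.8% of all genes in each), normexp (21.8%) or the mean over probes. It became 2 with no scaling (36%) and 0 at 2-fold or with the Z-score. The median of −0.28 became −0.0884 with quantile normalization and −0.0884 with the deposited table and −0.10 with no scaling. For stage in *Dyrk2*-/- the count of 4 became 5 with spike-in scaling (54.7% of all genes) and 3 with no scaling (35.6%). It became 2 with normexp (16.4%) or the mean over probes and 0 at 2-fold or with the Z-score. The median of −0.05 became 0.59 with spike-in scaling and 0.26 with no scaling. The limma count for stage was 4 and became 0 with spike-in scaling, 5 with quantile normalization or the deposited table (*Ccp110* gained) and with no filter (*Hdac6* gained, adjusted p 0.0484), and 3 without the trend (*Nek2* lost). With no scaling it was 4, with *Ccp110* in place of *Nek2*.

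Limma directions turned as follows. The genotype difference became −0.13 for *Nek2*, −0.13 for *Kif24* and −0.12 for *Nedd9* with spike-in scaling, and −0.13 for each of them with no scaling. The stage difference of *Aurka* became 0.0774 with quantile normalization, 0.0769 with the deposited table, 0.15 with spike-in scaling and 0.11 with no scaling, that of *Plk1* became 0.0017 with spike-in scaling, and that of *Kif24* became 0.0536 with spike-in scaling and 0.0135 with no scaling. Except for the shifts of the scalings, the cause was not tested. Leaving out an array was not possible, since 1 array per group then leaves limma 0 residual degrees of freedom, and no paired analysis was possible because the labels pair no samples. The second probes of *Kif2a*, *Kif24* and *Ttbk2* had limma standard errors of 0.26, 0.24 and 0.25, which limits them. Those of the first probes were 0.19, 0.17 and 0.13.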

Other observations

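Markers of other tissues on the same arrays are given as counts past 1.5-fold in *Dyrk2*-/- against WT. At E8.5, where 5.14% of all genes were higher and 6.52% lower, 1 of 8 neural markers was higher, 2 of 7 somite and mesoderm markers were higher and 1 lower, 1 of 6 heart markers was higher, 1 of 5 endoderm markers was lower and 1 of 5 endothelial markers was higher. At E10.5, where 3.5% of all genes were higher and 4.22% lower, 1 of 8 neural markers and 2 of 6 measured somite and mesoderm markers were lower, and 0 heart, endoderm or endothelial markers passed. Of 5 measured markers of motile cilia 1 was lower at E8.5 and 0 passed at E10.5, and *Dnah5* was well above background on 0 arrays.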
